A study of Mus musculus with 9 samples.

Results

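Histone deacetylase and demethylase genes were followed through the open chromatin of 3 kinds of mouse peritoneal macrophage. They were chosen by name: every protein-coding gene in RefSeq's annotation of GRCm38 whose symbol is Hdac with a number, or begins with Kdm or Sirt and a digit. The rule found 36 of 21900 protein-coding genes, and 35 of them lie on chromosomes 1 to 19 and X, which the peak lists hold and which carry 21631 such genes. Kdm5d, on chromosome Y, was not analysed here. The 35 comprise 11 histone deacetylases of classes I, II and IV, 7 sirtuins, 2 amine oxidase demethylases and 15 demethylases with a JmjC domain.

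Histone deacetylases strip acetyl groups from histone tails, which favours compact and less transcribed chromatin; the classical classes use zinc and work inside corepressor complexes, while the sirtuins consume NAD. Histone demethylases remove methyl groups either by flavin-dependent oxidation, as the Kdm1 enzymes do, or through a JmjC domain that needs iron and alpha-ketoglutarate. In macrophages Hdac3 is known to restrain genes of alternative activation, and Kdm6b, which lifts the repressive Polycomb methyl mark, is known to be induced by IL-4 and to favour that state.

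ATAC-seq, which tags accessible DNA with a transposase, was made from flow-sorted macrophages, with 3 samples in each of 3 groups. All 9 samples carry the genotype Cx3cr1CreERT2-IRES-EYFP/+ Rosa26-stopfl-tdTomato/+, in which a tamoxifen-dependent Cre under Cx3cr1 switches on a red reporter, so that labelling needs Cx3cr1 to be active while the drug is given. Monocyte-derived macrophages came from mice injected with 2 ml of thioglycollate, an irritant that recruits monocytes, 4 days before harvest. Converted macrophages came from mice that had 2 ml of thioglycollate and then 8 weeks of a tamoxifen diet, and the labels state no treatment particular to the resident group. Every mouse also received complexes of 5 µg IL-4 and 25 µg antibody to IL-4, given every other day from 4 days before harvest, so no group lacks the alternative activation stimulus. Treatment and cell origin cannot be told apart in any comparison. No label says that the 3 samples of a group were separate animals.

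Each group is represented by 1 merged peak list, with no depth and no spread between samples, so all differences below are descriptions without a test. The monocyte-derived list held 33694 peaks, the resident list 24348 and the converted list 15552, and this difference in length bears on every count. Peaks that overlap were joined to regions, 36843 in all, and a region absent from a list may be closed or only undetected. All 9 macrophage markers examined (among them Csf1r, Spi1 and Adgre1) had a monocyte-derived and a resident region, and 4 of 9 had a converted region; Spi1 and Adgre1 had 0 there. Their summed regions were 24, 6 and 17 in the monocyte-derived, converted and resident lists. Markers of other cells summed to 3, 2 and 1 for 5 B cell genes, 4, 0 and 0 for 5 T and NK cell genes, 1, 1 and 1 for 4 neutrophil genes, 4, 1 and 3 for 4 eosinophil genes and 1, 0 and 1 for 5 mesothelial and stromal genes. The 4 mast cell genes had 0 regions, as had Ms4a1, Pax5, Cd3e, Ly6g, Prg2 and Epx. Others had regions, among them Siglecf at 4, 1 and 2, Cd79a at 2, 2 and 1 and Cd3g at 2, 0 and 0. S100a8 had 0, 1 and 1. The part of other cells in the results was not tested.

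The promoters that set the lists apart are shown first. RefSeq's promoter table for GRCm38.p6, with the 250 bases before to 50 after each transcription start, has an entry for 27 of the 35 genes. In the 5 sequences that follow, of genes whose promoter was called in the monocyte-derived list alone, capitals mark the bases inside a monocyte-derived peak. Kdm1a encodes LSD1, the demethylase of the CoREST complex, and Kdm7a and Kdm5c encode JmjC enzymes. Sirt6 encodes a nuclear deacetylase, and Sirt4 a mitochondrial sirtuin.
Kdm1a (chr4:136602674-136602973, minus strand): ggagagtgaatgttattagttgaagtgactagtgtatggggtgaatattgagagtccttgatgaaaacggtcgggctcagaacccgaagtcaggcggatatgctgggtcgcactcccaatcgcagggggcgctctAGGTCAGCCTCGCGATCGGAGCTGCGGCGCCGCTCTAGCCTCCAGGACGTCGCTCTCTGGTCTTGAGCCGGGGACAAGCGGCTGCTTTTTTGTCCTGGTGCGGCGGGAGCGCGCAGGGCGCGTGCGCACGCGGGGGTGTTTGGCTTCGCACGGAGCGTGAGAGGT
Kdm7a (chr6:39206724-39207023, minus strand): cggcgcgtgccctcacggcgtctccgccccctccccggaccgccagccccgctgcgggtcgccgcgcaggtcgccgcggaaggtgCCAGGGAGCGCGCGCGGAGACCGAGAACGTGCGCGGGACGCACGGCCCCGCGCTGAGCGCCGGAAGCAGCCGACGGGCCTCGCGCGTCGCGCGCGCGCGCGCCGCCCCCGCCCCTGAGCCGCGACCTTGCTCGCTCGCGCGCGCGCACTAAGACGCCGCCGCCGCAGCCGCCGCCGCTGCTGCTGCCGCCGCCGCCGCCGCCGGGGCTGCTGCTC
Kdm5c (chrX:152232977-152233276, plus strand): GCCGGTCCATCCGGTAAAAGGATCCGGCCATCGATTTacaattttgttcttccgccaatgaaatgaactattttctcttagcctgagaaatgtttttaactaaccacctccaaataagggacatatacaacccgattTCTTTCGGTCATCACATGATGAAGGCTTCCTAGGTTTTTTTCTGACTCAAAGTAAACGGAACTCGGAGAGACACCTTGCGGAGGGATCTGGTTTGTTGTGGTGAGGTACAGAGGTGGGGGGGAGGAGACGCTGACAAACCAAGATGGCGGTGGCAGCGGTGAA
Sirt6 (chr10:81627517-81627816, minus strand): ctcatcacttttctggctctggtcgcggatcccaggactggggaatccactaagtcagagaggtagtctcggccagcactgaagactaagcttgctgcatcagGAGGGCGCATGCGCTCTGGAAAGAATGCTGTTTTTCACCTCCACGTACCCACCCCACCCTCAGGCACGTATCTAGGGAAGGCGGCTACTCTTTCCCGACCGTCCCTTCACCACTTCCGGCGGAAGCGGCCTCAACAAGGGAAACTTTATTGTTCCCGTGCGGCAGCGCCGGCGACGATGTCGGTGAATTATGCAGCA
Sirt4 (chr5:115484248-115484547, minus strand): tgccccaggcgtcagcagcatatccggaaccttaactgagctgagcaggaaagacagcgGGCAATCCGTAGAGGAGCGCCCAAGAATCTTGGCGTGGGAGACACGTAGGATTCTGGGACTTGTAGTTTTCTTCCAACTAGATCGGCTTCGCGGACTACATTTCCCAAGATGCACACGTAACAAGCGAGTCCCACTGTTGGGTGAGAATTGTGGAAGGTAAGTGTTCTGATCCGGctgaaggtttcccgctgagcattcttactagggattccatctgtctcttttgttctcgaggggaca

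As a contrast, the next 3 promoters were called in all 3 lists, and capitals mark the bases that all 3 lists cover. Hdac2 encodes a class I deacetylase of the NuRD, Sin3 and CoREST complexes, Kdm6a the X-linked relative of Kdm6b, and Sirt1 the nuclear sirtuin studied most for restraint of inflammatory genes. All 3 lists covered the 300 bases of Hdac2 whole, 225 bases of Kdm6a and 50 bases of Sirt1.
Hdac2 (chr10:36974294-36974593, plus strand): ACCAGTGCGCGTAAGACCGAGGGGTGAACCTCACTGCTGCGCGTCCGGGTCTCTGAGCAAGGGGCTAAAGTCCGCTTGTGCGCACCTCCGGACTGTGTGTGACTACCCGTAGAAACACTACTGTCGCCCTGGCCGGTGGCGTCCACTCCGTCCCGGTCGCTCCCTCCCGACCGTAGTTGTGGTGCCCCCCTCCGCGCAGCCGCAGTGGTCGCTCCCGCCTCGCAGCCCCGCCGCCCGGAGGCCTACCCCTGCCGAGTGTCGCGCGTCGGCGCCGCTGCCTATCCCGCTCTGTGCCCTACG
Kdm6a (chrX:18162325-18162624, plus strand): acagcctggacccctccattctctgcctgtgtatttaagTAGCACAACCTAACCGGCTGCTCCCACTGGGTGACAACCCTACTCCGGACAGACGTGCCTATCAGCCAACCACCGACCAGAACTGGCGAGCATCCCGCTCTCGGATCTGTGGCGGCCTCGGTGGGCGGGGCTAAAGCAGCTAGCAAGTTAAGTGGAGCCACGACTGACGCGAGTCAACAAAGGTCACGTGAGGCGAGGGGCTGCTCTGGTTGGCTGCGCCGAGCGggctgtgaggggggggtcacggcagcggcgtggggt
Sirt1 (chr10:63338986-63339285, minus strand): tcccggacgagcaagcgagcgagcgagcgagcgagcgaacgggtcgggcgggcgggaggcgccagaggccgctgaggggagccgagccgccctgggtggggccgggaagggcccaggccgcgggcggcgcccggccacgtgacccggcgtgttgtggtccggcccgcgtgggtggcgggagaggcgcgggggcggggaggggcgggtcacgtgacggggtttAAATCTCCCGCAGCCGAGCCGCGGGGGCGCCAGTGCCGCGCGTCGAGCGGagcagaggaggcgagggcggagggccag

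Hdac5, a class IIa deacetylase, is shown for a promoter called in the monocyte-derived and resident lists and not in the converted one. Capitals mark its 216 bases inside a monocyte-derived peak, of which the resident peak covered 100.
Hdac5 (chr11:102230123-102230422, minus strand): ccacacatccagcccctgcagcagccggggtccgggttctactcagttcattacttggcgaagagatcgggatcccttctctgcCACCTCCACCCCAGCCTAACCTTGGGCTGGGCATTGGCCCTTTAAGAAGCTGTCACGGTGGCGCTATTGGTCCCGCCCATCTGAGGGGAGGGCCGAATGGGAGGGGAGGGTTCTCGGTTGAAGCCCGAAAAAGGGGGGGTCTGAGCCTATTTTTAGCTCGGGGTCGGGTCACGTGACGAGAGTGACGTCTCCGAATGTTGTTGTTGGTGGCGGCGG

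Every one of the 35 genes had at least 1 open region in monocyte-derived macrophages, counting the gene and up to 10 kb beyond either end. The resident list had a region for 31 genes (88.6%, 95% Wilson interval 74.0 to 95.5%) and the converted list for 27 (77.1%, 61.0 to 87.9%); intervals here cover counting error only. Over all protein-coding genes the shares were 60.2% in the monocyte-derived, 43.2% in the converted and 54.0% in the resident list. The 35 genes have a median length of 41.9 kb, against 17.3 kb over all protein-coding genes, and wider windows can hold more regions. Genes with a monocyte-derived region have a median of 23.5 kb. Monocyte-derived regions per 100 kb of gene and flank were 2.98, 2.45 and 3.75 in these 3 sets. The shares were not matched for length. Genes that have a monocyte-derived region are a closer background, since all 35 do: of 13016 such genes 70.2% had a converted and 84.7% a resident region, close to the shares of the 35. Summed over the 35 genes there were 105 monocyte-derived, 46 converted and 66 resident regions. The converted sum was thus 43.8% and the resident sum 62.9% of the monocyte-derived one, against 43.5% and 66.1% over all protein-coding genes, so the set as a whole followed its background.

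**Figure D1:**
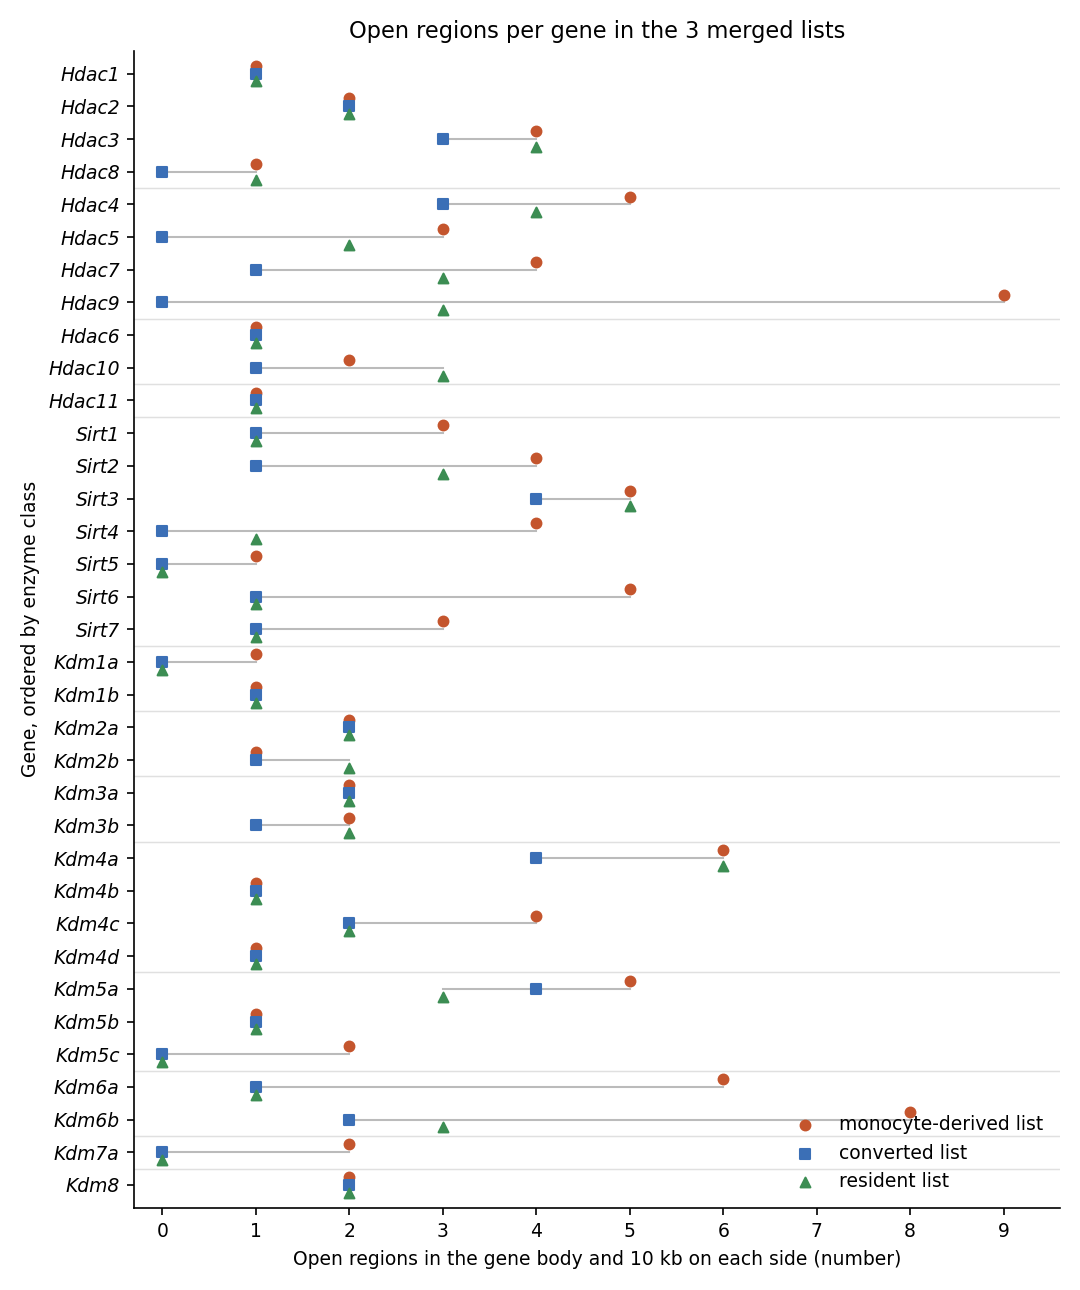
Open regions of each of the 35 genes (horizontal axis, number in the gene and 10 kb beyond its ends), with circles for the monocyte-derived, squares for the converted and triangles for the resident list. Hdac9, Kdm6b and Kdm6a show the widest gaps, at 9, 0 and 3, 8, 2 and 3, and 6, 1 and 1 regions.

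Relative to monocyte-derived macrophages, 17 genes had fewer resident regions, 2 had more and 16 had as many. The background for fewer resident regions was 35.0% of all genes and that for more 7.59%; among genes with a monocyte-derived region the shares were 58.2% and 7.51%, against 48.6% and 5.71% of the 35. Converted macrophages had fewer regions than monocyte-derived ones at 23 genes, more at 0 and as many at 12. Over all genes 45.3% had fewer and 1.81% more, and among genes with a monocyte-derived region 75.3% and 1.45%, against 65.7% and 0% of the 35. Compared with resident macrophages, converted ones had fewer regions at 14 genes, more at 1 and as many at 20, where 29.2% of all genes had fewer and 4.44% more. Among genes with a monocyte-derived region these last shares were 44.3% and 6.95%, against 40.0% and 2.86% of the 35. All 6 shares lay below those of the genes with a monocyte-derived region, so more of the 35 had equal counts. The 2 genes with more resident than monocyte-derived regions were Hdac10 and Kdm2b, and the gene with more converted than resident regions was Kdm5a.

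Class I deacetylases, among them subunits of the large corepressor complexes, kept most of the regions in their 10 kb windows across the lists. Counts from here on follow the order monocyte-derived, converted and resident, and summed to 8, 6 and 8 over the 4 genes. The converted sum was 75.0% of the monocyte-derived one, against 43.5% over all genes, and the resident sum 100%, against 66.1%. Hdac1, the close relative of Hdac2, had 1 region in each list, across its gene end (chr4:129542614-129542888). Hdac2 had 2, 2 and 2 regions, and the one over its promoter (chr10:36974164-36974813), 650 bp wide, stood at the smallest p-value of the authors' lists, 1e-12, in all 3 lists. Hdac3, a catalytic subunit of nuclear receptor corepressor complexes, had 4, 3 and 4, and of the regions called in all 3 lists 1 lay across its gene end and 2 over the neighbour Diaph1. The fourth, chr18:37954689-37954763 inside Hdac3, was called in the monocyte-derived list alone, and the resident list had 1 of its own 1.30 kb outside the gene, in Rell2. With each region left to the gene with the nearest end, Hdac3 had 2, 1 and 1 and Hdac2 3, 2 and 2, while the counts of Hdac1 and Hdac8 were unchanged. Hdac8, whose gene on the X chromosome spans 221 kb, had 1, 0 and 1, a region of 100 bp upstream of its start.

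Class IIa deacetylases had, at the reported list lengths, the lowest converted share of their monocyte-derived regions of any family with more than 2 genes. These enzymes shuttle between nucleus and cytoplasm and bind MEF2 transcription factors, and their 4 genes summed to 21, 4 and 12 regions. The converted sum was 19.0% of the monocyte-derived one, against 43.5% over all genes, and the resident sum 57.1%. Hdac9 alone held 9 of the 21. With the lists cut to equal length the converted count was below the monocyte-derived one at Hdac9 alone, with 4, 0 and 3. Hdac4 then had 2, 3 and 1, Hdac7 1, 1 and 3, and Hdac5 0 in each list. Hdac9 had 9, 0 and 3 regions over a gene of 870 kb, the longest of the 35. Of 77 genes with 9 monocyte-derived regions, 6 had no converted region (7.79%), Hdac9 among them, and 41.6% had at most 3 resident regions. Its regions lay deep in the gene or beyond one end: 2 neighbouring ones, chr12:34722864-34723113 and chr12:34723189-34723388, were shared by the monocyte-derived and resident lists, and chr12:34221364-34221488 was called in the resident list alone. Neither of the 2 listed Hdac9 promoters held a peak.

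Hdac5 had 3, 0 and 2 regions. Its promoter region (chr11:102230089-102230338) was called in the monocyte-derived and resident lists, while inside the gene the lists called 2 places side by side, chr11:102218789-102218913 in the resident and chr11:102218939-102219013 in the monocyte-derived list. Of 2178 genes with 3 monocyte-derived regions, 21.2% had no converted one and 70.0% at most 2 resident ones; Hdac5 is one of these genes. Hdac7 had 4, 1 and 3, and the region called in all 3 lists lay 8.20 kb outside it, in Slc48a1. Hdac4 was the member of the class with the most converted regions, at 5, 3 and 4. Its promoter region (chr1:92180189-92180713) was at the p-value of 1e-12 in all 3 lists, and all 3 covered the whole 300 bases. A further region 128 kb into the gene (chr1:92052189-92052538) was also called in all 3 lists.

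**Figure D2:**
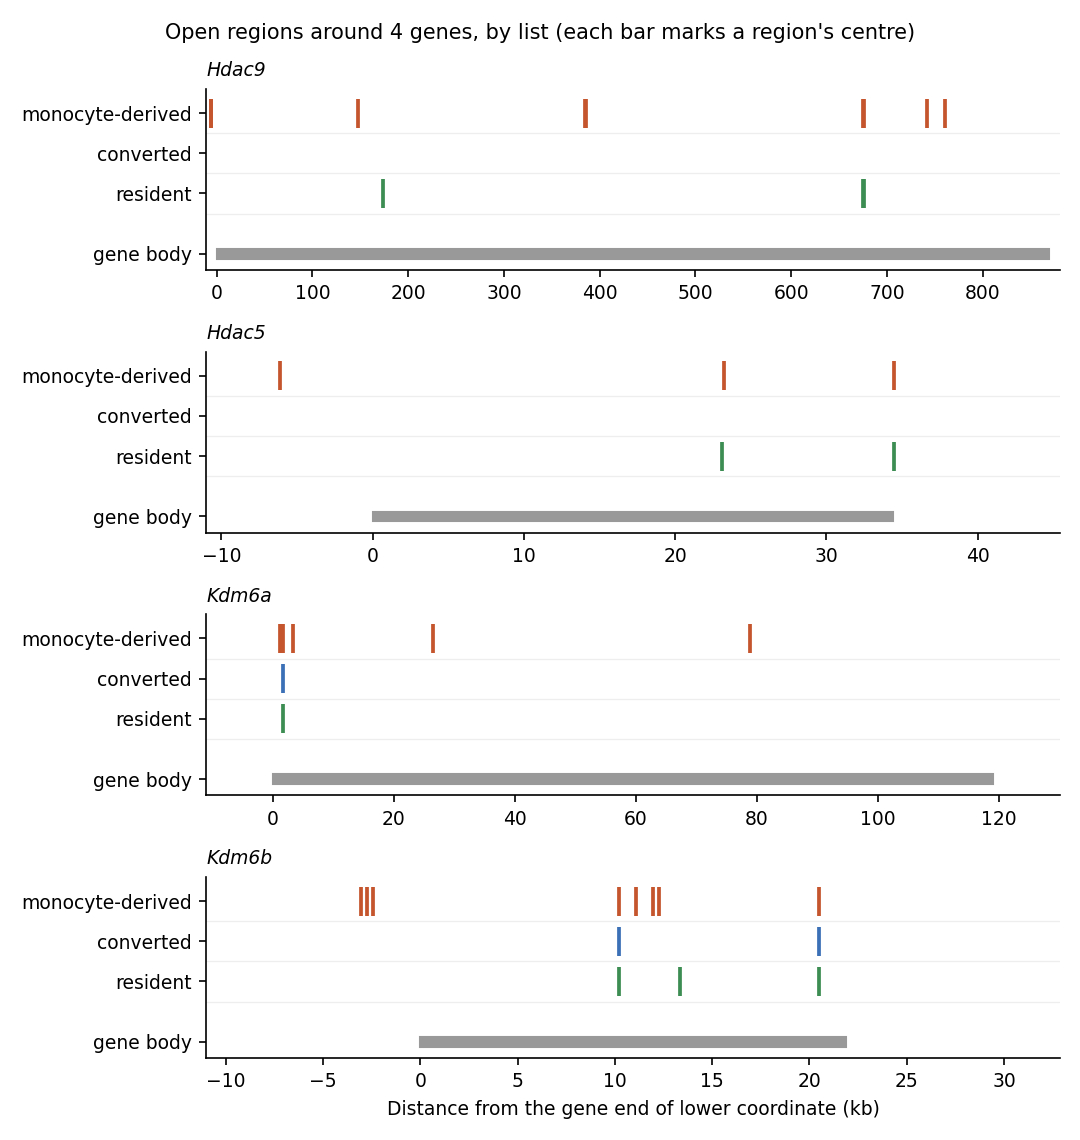
Centres of the open regions (vertical bars) around Hdac9, Hdac5, Kdm6a and Kdm6b in each list, by distance in kb from the gene end of lower coordinate, with the gene body in grey; bars of regions close together merge at this scale. The converted list has 0 bars at Hdac9 and Hdac5, 1 at Kdm6a and 2 at Kdm6b, each of which the other lists also have.

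The remaining classical deacetylases had few regions and small differences. Hdac6, the cytoplasmic tubulin deacetylase of class IIb, had 1 region in each list, over its promoter (chrX:7947814-7948138). Hdac10, a polyamine deacetylase in the same class, had 2, 1 and 3 in and around a gene of 5.40 kb, and the extra resident region (chr15:89122714-89122788) lay 0.515 kb outside it, in Tubgcp6. Hdac11, the class IV enzyme, had 1 region in each list, ending 2 bases before its listed start. All 11 classical deacetylases together had 33, 13 and 25 regions.

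Sirtuins had 25, 8 and 12 regions over 7 genes, a converted sum of 32.0% and a resident sum of 48.0% of the monocyte-derived one. Their genes are short, with a median of 18.6 kb against 41.9 kb over the 35. Per 100 kb of gene and flank the counts were 9.79, 3.13 and 4.70, against 2.98, 1.30 and 1.87 for the whole set. The 10 kb flanks make up much of such windows, and no background of equally short genes was counted. With each region left to the gene with the nearest end, Sirt5 and Sirt7 had 0 in each list. Sirt6 had 5, 1 and 1: the region that all 3 lists called (chr10:81633539-81633888) lay 5.75 kb outside the gene in Ankrd24, and the 2 over its listed promoters were monocyte-derived alone. Of 785 genes with 5 monocyte-derived regions, 39.2% had at most 1 converted and 16.3% at most 1 resident region. Sirt4 had 4, 0 and 1, and the shared region of 700 bp (chr5:115489414-115490113) lay 0.151 kb inside one gene end, at a p-value of 1e-12 in the monocyte-derived and 5.63e-06 in the resident list.

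Sirt1 had 3, 1 and 1, and the tissue lists lacked a region 0.497 kb and another 11.7 kb downstream of its start. Sirt2, a mainly cytoplasmic deacetylase, had 4, 1 and 3, of which those outside the gene lay in Nfkbib and Rinl. In the gene body alone Sirt2 had 2, 1 and 2. Its promoter region counts as called in all 3 lists, yet the converted peak covered 37 bases (offsets -250 to -214 from the start) and the resident peak 75 others (-163 to -89), joined only through the monocyte-derived peak. Sirt3, the main mitochondrial deacetylase, had 5, 4 and 5 at the reported list lengths and 5, 4 and 1 at equal ones; 3 of these regions lay over 6 kb outside it, near Bet1l and Ric8a. Sirt7, a nucleolar deacetylase, had 3, 1 and 1, all outside the gene, in Pcyt2 and Mafg. Sirt5, a mitochondrial desuccinylase, had 1, 0 and 0, and that region lay 3.04 kb outside it and nearer to an end of Nol7.

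The amine oxidase demethylases differed from each other at their promoters. Kdm1a had 1, 0 and 0 regions, and that one (chr4:136602664-136602838, p = 3.77e-07 in the authors' list) crossed its start. Kdm1b had 1 in each list, 525 bp over its start (chr13:47043089-47043613) and at the p-value of 1e-12 in all 3; the region also overlaps Tpmt. Among 3980 genes with a single monocyte-derived region, 48.8% had no converted and 29.3% no resident region, so absence from a tissue list was common at this count.

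JmjC demethylases summed to 45, 24 and 28 regions over 15 genes, a converted share of 53.3% and a resident share of 62.2% of the monocyte-derived sum. The 2 Kdm6 genes, which act on the Polycomb mark, had the widest gap among these families, at 14, 3 and 4. Kdm6b had 8, 2 and 3 regions. The 2 called in all 3 lists lay inside the gene, at chr11:69408589-69408888 and, 1.25 kb from one gene end, at chr11:69418889-69419113. Another 3 inside the gene and 3 near Cyb5d1 and Naa38 were monocyte-derived alone, and chr11:69411814-69411888 was resident alone. By nearest gene end, where a region counts for several genes only if it spans their ends or ties, the counts were 5, 2 and 3. Of 168 genes with 8 monocyte-derived regions, 43.5% had at most 2 converted and 38.1% at most 3 resident regions.

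Kdm6a had 6, 1 and 1 regions, all inside the gene. The promoter region (chrX:18162264-18162713) was called in all 3 lists, with a peak p-value of 1e-12 in the monocyte-derived and resident lists and 6.74e-06 in the converted list. The other 5 were monocyte-derived alone, 3 of them within 1.54 kb of the start and 2 at 24.5 and 77.1 kb. Of the nearer 3, chrX:18162189-18162263 directly adjoins the promoter region. Of 430 genes with 6 monocyte-derived regions, 31.4% had at most 1 converted and 12.1% at most 1 resident region.

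Kdm5 enzymes erase the methyl mark of active promoters, and their 3 genes diverged. Kdm5a had 5, 4 and 3 regions. All 3 lists shared 3 of them, and chr6:120363664-120363888, 0.211 kb outside the gene in Ccdc77, was missing from the resident list. The gene body alone held 1 region in each list. With peaks within 200 bp joined, Kdm5a had 4, 3 and 3, so converted no longer exceeded resident. Kdm5b had 1 in each list, 3.02 kb before its listed start in Mgat4e. The X-linked Kdm5c had 2, 0 and 0: chrX:152232714-152233013, with a peak p-value of 1e-12, and chrX:152233114-152233288, both of which reach into its promoter. Kdm7a, a JmjC enzyme with a reader domain for methylated histone, also had 2, 0 and 0, with chr6:39206589-39206938 over its start and a region of 75 bp 1.26 kb downstream. Among 3510 genes with 2 monocyte-derived regions, 31.5% had no converted and 15.3% no resident region.

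Kdm4 genes, whose enzymes act on methyl marks of heterochromatin and gene bodies, summed to 12, 8 and 10. Kdm4a had 6, 4 and 6, with 4 regions in all 3 lists; its promoter region (chr4:118179889-118180238) had a peak p-value of 1e-12 in each. Kdm4c had 4, 2 and 2, and the promoter region (chr4:74251614-74252038) was likewise at 1e-12 in each list. Kdm4b had 1 in each list, at 1e-12 in all 3 and across one gene end, and Kdm4d 1 in each, over its start and also over Cwc15. Kdm3a, a demethylase also studied in hypoxia, had 2, 2 and 2 around its start, and Kdm3b 2, 1 and 2. Kdm2a had 2 in each list, and Kdm2b, a subunit of a Polycomb complex, 1, 1 and 2, where the extra resident region (chr5:122894964-122895038) lay 5.31 kb downstream of a listed start. Kdm8 had 2, 2 and 2, but not the same regions. Its promoter region (chr7:125444514-125444738) was not in the converted list, but a region 0.169 kb downstream of its start (chr7:125444789-125445113) was called in all 3. The converted list held the only converted-alone region of the 117, 8.74 kb outside the gene in Nsmce1.

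The 35 windows held 117 distinct regions, none of them in 2 windows. All 3 lists called 43 of them (36.8%, 95% Wilson interval 28.6 to 45.8%), and the monocyte-derived list alone called 48 (41.0%, 32.5 to 50.1%). A further 12 were shared by the monocyte-derived and resident lists (10.3%, against 14.7% over all gene windows). The monocyte-derived and converted lists shared 2 (1.71% against 3.68%). Resident alone were 11 (9.40% against 10.0%), and converted alone 1 (0.855% against 1.53%). No region was shared by the converted and resident lists alone, which a count of 0 of 117 limits to 3.18% at the upper Wilson bound, above the 1.78% found over all gene windows. Over all gene windows 30.6% were called in all 3 lists and 37.7% in the monocyte-derived list alone, each inside the interval of the 35 genes. Inside the genes lay 83 regions, and of the 34 outside 24 overlapped another protein-coding gene, to which they may equally belong. The annotation used gives no exons, so exonic and intronic positions are not stated.

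Regions near a gene end were the ones most often shared. Within 1 kb of an end of any protein-coding gene, 26 of 52 regions (50.0%, 36.9 to 63.1%) were called in all 3 lists, and farther away 17 of 65 (26.2%, 17.0 to 38.0%). Over all gene windows the same shares were 44.2% and 18.9%. Farther than 1 kb from gene ends the monocyte-derived list alone called 32 of 65 regions (49.2%), against 47.7% over all gene windows. The 7 regions at the p-value of 1e-12 in all 3 lists belonged to Hdac2, Hdac4, Kdm1b, Kdm3a, Kdm4a, Kdm4b and Kdm4c, and each lay over a listed promoter or across a gene end; those of Hdac4 and Kdm4c, at starts inside the gene, lay 15.0 and 9.12 kb from its ends.

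**Figure D3:**
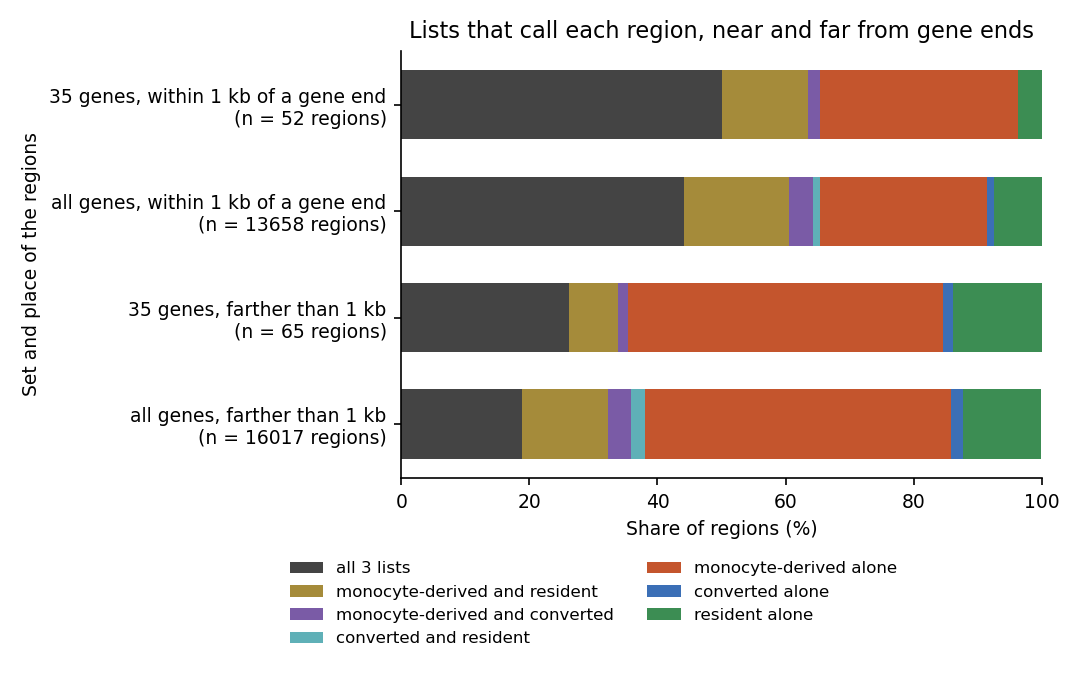
Share of regions (%) by the lists that call them, for the 35 genes and for all gene windows, within 1 kb of a gene end and farther away; n is the number of regions. Regions in all 3 lists made up 50.0% of those near gene ends and 26.2% of those farther away at the 35 genes, and 44.2% and 18.9% over all genes.

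Promoters of the 27 genes with a listed start were called at 22 genes in the monocyte-derived list (81.5%, 63.3 to 91.8%), 14 in the converted list (51.9%, 34.0 to 69.3%) and 17 in the resident list (63.0%, 44.2 to 78.5%). Of 17274 genes with such an entry, 42.5%, 29.2% and 36.0% had a promoter region in the same order. Of the 22 monocyte-derived promoters, 63.6% were also called in the converted and 77.3% in the resident list, against 67.0% and 80.5% over all genes. The 14 genes called in all 3 lists were Hdac2, Hdac4, Hdac6, Hdac11, Kdm1b, Kdm2b, Kdm3a, Kdm4a, Kdm4c, Kdm4d, Kdm6a, Sirt1, Sirt2 and Sirt3. Hdac5, Hdac8 and Kdm8 lacked the converted call, and Kdm1a, Kdm5c, Kdm7a, Sirt4 and Sirt6 lacked both tissue calls. Of all 17274 genes 27.3% were called at a promoter in all 3 lists, 6.98% in the monocyte-derived and resident lists, 7.05% in the monocyte-derived list alone and 55.5% in none. None of the 27 genes had a promoter called in a tissue list without the monocyte-derived one. Such calls were rare over all genes too, at 1.28% in the resident list alone, 0.208% in the converted list alone and 0.457% in both. Hdac7, Hdac9, Kdm5b, Sirt5 and Sirt7 had no call over any listed start, and 8 genes, Hdac1, Hdac3, Hdac10, Kdm2a, Kdm3b, Kdm4b, Kdm5a and Kdm6b, had no entry.

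**Figure D4:**
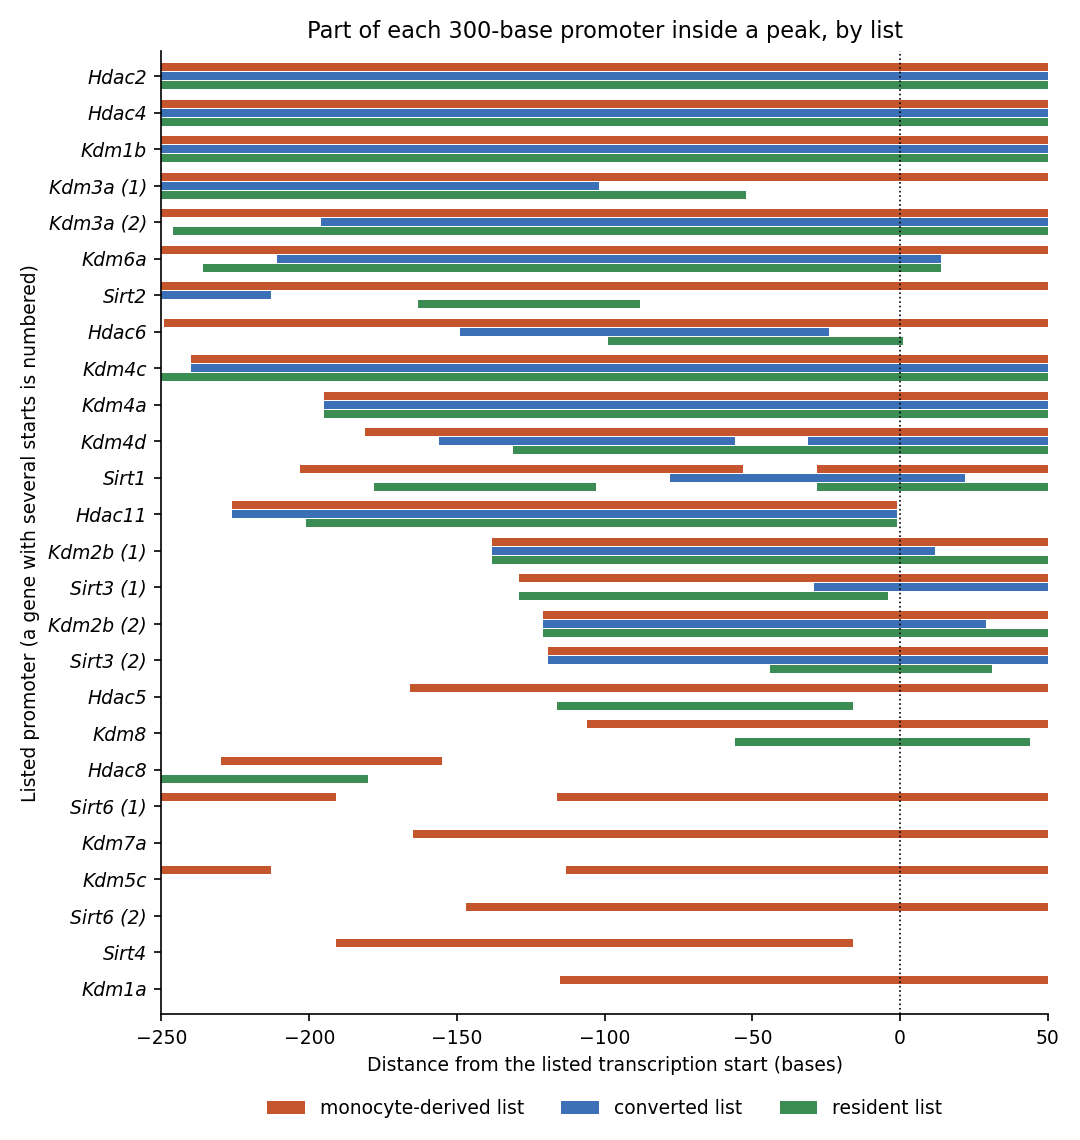
Part of each listed promoter (offset in bases from the transcription start, 250 before to 50 after) that lay inside a peak of each list, for the promoters with any peak. Hdac2, Hdac4 and Kdm1b are covered whole by all 3 lists, Sirt2 by converted and resident peaks that do not meet, and the bottom 6 bars of Sirt6, Kdm7a, Kdm5c, Sirt4 and Kdm1a by the monocyte-derived list alone.

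Base composition differed between the called promoters and the rest in the same direction as over all genes. The 39 listed promoters of the 27 genes had a median GC content of 61.0%, against 56.7% over 21045 promoters, and a median of 20.0 CpG dinucleotides against 13.0. The 17 called in all 3 lists had medians of 64.7% and 24.0, and the 13 without a region 54.7% and 15.0. The promoter of Kdm7a was the most GC-rich of the 39, at 82.7% and 65 CpG, yet was called in the monocyte-derived list alone. That of Kdm5c, with the same calls, had 47.0% GC and 13 CpG.

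Short motifs were searched on both strands of the 39 promoters, as letters only. The SP1 box GGGCGG was held by 24 (61.5%, against 46.7% of all promoters) and CCAAT by 16 (41.0% against 38.5%). The AP-1 letters TGANTCA were in 6 (15.4% against 7.04%), of Hdac7, Hdac9, Kdm3a, Kdm4a and Kdm5c, and lay inside a peak at Kdm3a, Kdm4a and Kdm5c. The ETS core CCGGAAG was also in 6 (15.4% against 11.7%), and the PU.1 letters GAGGAAGT, which share GGAAG with it, in 0 (against 3.15%). The STAT6 pattern, TTC and GAA with 4 bases between, was in 2 (5.13% against 6.41%): Hdac4 at -93 to -84 and the downstream Sirt6 start at -38 to -29. The E-box CACGTG was in 4 (10.3% against 7.91%), at Hdac5, Kdm4c, Kdm6a and Sirt1, with 2 copies each in Kdm4c and Sirt1. The NRF1 core GCGCATGC was in 2 (5.13% against 3.54%), AAGATGGC of YY1 in 1 (2.56% against 3.07%), at Kdm5c, and TGACGTCA of CRE in 0 (against 2.26%).

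Partner genes, from lists of subunits of the deacetylase complexes and of the opposing enzymes, were counted in the same way. Of 83 genes listed, 82 were found and 80 had a monocyte-derived, 64 a converted and 72 a resident region; the exceptions were Rcor2 and Ezh1, and Uty on chromosome Y was not analysed here. They summed to 284, 112 and 165 regions, with 53 genes lower and 3 higher in resident than in monocyte-derived macrophages, 63 and 0 in converted ones, and 39 and 7 in converted against resident ones. The shares of genes with a monocyte-derived region that had fewer and more were 58.2% and 7.51%, 75.3% and 1.45%, and 44.3% and 6.95% in the same order, and those of all genes 35.0% and 7.59%, 45.3% and 1.81%, and 29.2% and 4.44%. NuRD genes summed to 44, 18 and 22, with Gatad2a at 12, 3 and 4. Sin3 genes summed to 27, 14 and 21. Of the 7, 6 had fewer converted than resident regions, where 29.2% of all genes and 44.3% of genes with a monocyte-derived region did. With the lists cut to equal length most of these differences were gone: Ing1 and Ing2 each had 4 converted and 4 resident regions, and Sin3a 2 and 2.

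CoREST genes, partners of Kdm1a, summed to 14, 8 and 6; Rcor3 had 5, 5 and 2, and Phf21a 2, 0 and 0. The 4 MEF2 genes bound by class IIa enzymes summed to 27, 10 and 16, most of it from Mef2c at 17, 4 and 8. Acetyltransferases, which add the marks that deacetylases take off, summed to 36, 14 and 17 over 12 genes, and Crebbp had 5, 1 and 3. Lysine methyltransferases summed to 70, 25 and 47 over 25 genes, with Setd1a at 5, 0 and 3 and Smyd2 at 1, 1 and 3. Other JmjC proteins summed to 45, 16 and 27 over 13 genes, with Jarid2 at 6, 1 and 5 and Jmjd6 at 5, 2 and 6.

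The differences in summed regions were smaller once the lists were made equally long. With each list reduced to its 15552 peaks of smallest p-value, the 35 genes had 54 monocyte-derived, 46 converted and 42 resident regions. Then 12 genes had fewer and 9 more converted than monocyte-derived regions (19.2% and 13.2% of all genes), 16 fewer and 6 more resident than monocyte-derived ones (19.8% and 16.2%), and 6 fewer and 10 more converted than resident ones (16.7% and 14.8%). The number with fewer resident than monocyte-derived regions thus went only from 17 to 16, while the share of all genes went from 35.0% to 19.8%. Shares among genes with a monocyte-derived region were not counted at this setting. Hdac9 again had 0 converted regions, at 4, 0 and 3. Kdm6b had 4, 2 and 4 and Kdm6a 2, 1 and 1. Hdac5 and Kdm7a had 0 in each list, and Kdm1a and Kdm5c 1, 0 and 0. Among class IIa genes Hdac4 turned to 2, 3 and 1, and Hdac7 to 1, 1 and 3.

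**Figure D5:**
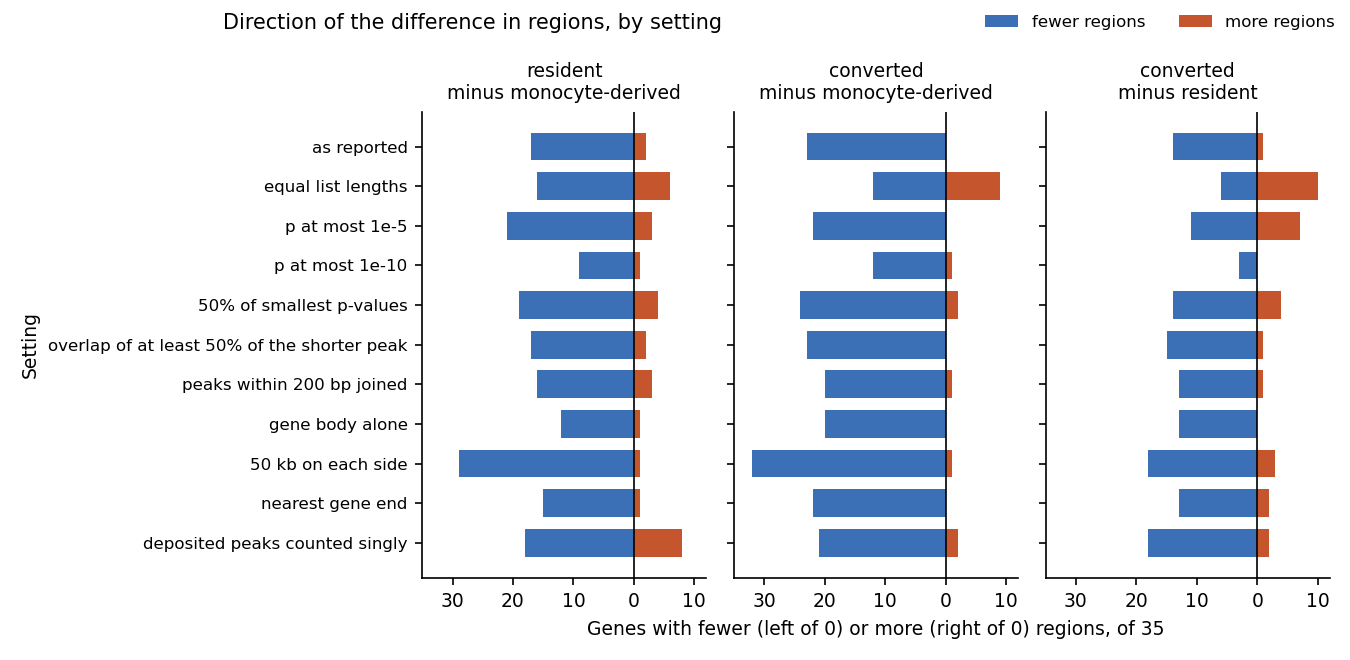
Number of the 35 genes with fewer (left) or more (right) regions in the first list of each comparison, under the reported setting and 10 alternatives. Fewer outnumber more in every bar pair but 1, converted against resident at equal list lengths, with 6 and 10 genes.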

How the data were processed

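Alignment of the reads from all 9 samples used Bowtie2, version 2.2.9, and the mm10 assembly, which is GRCm38, per the submitters' processing notes. Not given in the sources used here are the peak caller, its threshold, the treatment of duplicates and the way samples of a group were combined, and any of these could change which regions were called. The files hold peak positions with the authors' deposited p-value of each peak, whose smallest value is 1e-12. Although the lists are named for a p-value of 1e-05, 5476 resident, 1267 monocyte-derived and 0 converted peaks exceed it. These p-values were used here to order or filter the peaks of each list. RNA-seq of the same groups was not analysed here.

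Overlapping peaks (1 bp or more) were joined to regions across lists. Peaks that touch without sharing a base stayed separate, as beside the promoter regions of Kdm4c and Kdm6a and beyond one end of Hdac9. Joining peaks within 200 bp gave sums of 83 monocyte-derived, 40 converted and 56 resident regions. Regions were assigned to every gene within 10 kb, so that a region can count for several genes, and to the 300 bases of each RefSeq promoter of GRCm38.p6. Intervals are Wilson intervals at 95%. All 35 genes found by the naming rule are reported, and from each partner list only genes among the 2 with the largest difference in either direction of a comparison; 1 partner list, which the totals over partner genes include, is not reported here. Genes, lists and motifs were chosen with earlier results of these data known. Counting was checked on simulated peaks. Alternatives varied list length, p-value, merging, gene window and assignment. Analyses ran in Python 3.11.15 with pandas 2.3.3 and numpy 2.4.6, and plots in matplotlib 3.10.9.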

Additional observations from a re-analysis of the deposited data

How the results depend on the processing

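With depth unknown, a missing call cannot be told from an undetected one. No paired analysis was possible because only 1 merged list stands for each group, which also leaves no replicate to omit. The net over the 35 genes was -39 regions for resident minus monocyte-derived, -59 for converted minus monocyte-derived and -20 for converted minus resident. At equal list lengths these nets were -12, -8 and 4, so the last one turned; fewer monocyte-derived and resident peaks enter there by construction. At p at most 1e-10 they were -11, -14 and -3, with 17, 8 and 11 genes having a monocyte-derived, converted and resident region and 10, 7 and 9 a promoter region. In the 50% of smallest p-values the nets against the converted list were -39 and -12, with 16 genes having a converted region and 9 a converted promoter. With 50 kb on each side the nets were -79, -121 and -42 from wider windows; the gene body alone gave -25 for resident minus monocyte-derived, and p at most 1e-5 gave -7 for converted minus resident. The remaining values of these kinds stayed within 1.5 times those reported.

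Of 105 differences of single genes, 46 stayed within 1.5 times at equal list lengths. Another 48 moved further, or to or from 0, and 11 turned. At p at most 1e-10, 64 moved and 0 turned. Of the 11 genes with equal counts in all 3 lists, Hdac1 and Hdac6 had 0, 1 and 1 at equal list lengths. Kdm2a had 1, 2 and 0, Kdm3a and Kdm8 had 2, 2 and 1, and the rest stayed equal. Differences turned in these cases. At equal list lengths converted minus monocyte-derived became 1 for Hdac3, Hdac4, Kdm4a, Kdm4c and Sirt7, resident minus monocyte-derived became 2 for Hdac7 and 1 for Kdm4c, and converted minus resident became 1 for Hdac3 and Kdm2b, 2 for Hdac4 and 3 for Sirt3. At p at most 1e-5 converted minus resident became 2 for Hdac4 and Sirt3. In the 50% of smallest p-values it became 1 for Hdac4, Kdm2b and Sirt3 and -1 for Kdm5a, and resident minus monocyte-derived became 1 for Kdm4c. With 50 kb on each side resident minus monocyte-derived became -1 for Hdac10 and Kdm2b. The cause was not tested.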
